A study of Mus musculus with 22 samples.

Results

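The genes that build the cornified envelope, the cross-linked protein shell of the outermost skin cells, were followed in RNA of the distal colon. Members were every row of the count table whose gene name begins with Sprr or Lce and a digit, together with rows named Flg, Flg2, Lor, Ivl, Hrnr, Rptn, Crnn, Krtdap, Sbsn, Dsg1a or Dsc1. This rule found 56 of 46078 genes. They were 17 Sprr genes, 21 Lce genes, 8 rows that all carry the name Flg, and 10 single genes. Levels were compared between C57BL/6 wild-type control mice aged 14 weeks (8 libraries, replicates 1 to 4 male and 5 to 8 female), Winnie mice aged 14 weeks that the labels call inflamed (7 libraries, 1 to 3 male and 4 to 7 female), and Winnie-Prolapse mice aged 18 weeks that the labels call severely inflamed (7 libraries, 1 to 4 male and 5 to 7 female). Winnie mice carry a missense mutation in Muc2, the gene of the main mucin of the colon, and develop colitis without any added agent. Gene counts cannot show that mutation. The labels name no other allele or treatment in any of the groups. The Winnie-Prolapse mice were also the older ones, so prolapse and age cannot be told apart. The labels do not say how much tissue next to the anus a segment held.

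The cornified envelope forms beneath the membrane of a keratinocyte as the cell dies. Transglutaminases first join involucrin (Ivl), then loricrin (Lor), the small proline-rich proteins (Sprr) and the late cornified envelope proteins (Lce), while filaggrin (Flg) bundles the keratin filaments inside. Most of these genes lie side by side in the epidermal differentiation complex on mouse chromosome 3, and they are used in skin, in the keratinised lining of the mouth, oesophagus and forestomach, and in the anal canal. The colon is lined by a single layer of columnar cells that do not cornify, but intestinal epithelium is known to use Sprr2a, which responds to bacteria and to injury.

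Of the 56 members, 52 lay on chromosome 3. In the GENCODE M21 annotation of GRCm38, the build of the count table, they ran from Lor at chr3:92080271-92083142 to Rptn at chr3:93393699-93399442. Krtdap (chr7:30787896-30791097) and Sbsn (chr7:30751471-30756134) are neighbours on chromosome 7, and Dsg1a (chr18:20310811-20343350) and Dsc1 (chr18:20084184-20114871) lie on chromosome 18. The 7 members absent from that annotation were all Flg rows. One Flg row, ENSMUSG00000081977, held nearly all Flg reads, with 9343 counts against 41 or fewer in each other Flg row. It is the row called Flg here. It is itself one of the 7 rows absent from the annotation, so it has no exon length and no place in the order per kilobase below, and the annotated Flg row had 1 count. Libraries held 24817527 to 36344372 counts. Levels are given as counts per 1000000 (CPM), on which scale 3 counts, the limit that a count of 0 allows, correspond to between 0.0825 and 0.121 CPM. Across all libraries 8 members had under 50 counts, the other 7 Flg rows and Sprr2c-ps, and 1 of these Flg rows had no count. At this depth 33 members were at 0 in every C57BL/6 library and 24 in every Winnie library.

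All libraries held colon epithelium. The summed share of 7 colon epithelial genes (Cdh17, Vil1, Krt20, Slc26a3, Aqp8, Car1 and Muc2) was between 0.415% and 1.79% of counts. Markers of stratified epithelium were not even across libraries. A list of 7 basal keratinocyte genes (Krt5, Krt14, Krt15, Trp63, Col17a1, Dsg3 and Dsc3) summed to between 3.35 and 4.74 CPM in C57BL/6 libraries and to between 1.76 and 4.69 CPM in 6 Winnie libraries. Winnie 2 stood apart at 30.7 CPM. In Winnie-Prolapse libraries 1 to 7 the sum was 2.81, 1064, 2.12, 704, 165, 266 and 1892 CPM. Winnie-Prolapse 1 and 3 were therefore below every C57BL/6 library, with Krt5 at 0.059 and 0.061 CPM, whereas the other 5 libraries were above every C57BL/6 library. In tissue RNA a change in the number of cells that express a gene and a change in RNA per cell cannot be told apart. The edgeR calls of members in comparisons with Winnie-Prolapse are given with these 5 libraries and without them, and so is the number of genes called in other lists. Other counts are given with all 7 libraries only, and the part played by squamous cells was not tested. Winnie-Prolapse 6 also held milk protein mRNA at 179624 CPM, or 18.0% of its counts. The next library was Winnie-Prolapse 5 at 54.2 CPM.

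Sequence before the gene start is shown for 6 members as examples of the 2 patterns across Winnie-Prolapse libraries. Sprr2h, Sprr2k, Sprr2i and Sprr1a were above every C57BL/6 library in all Winnie-Prolapse libraries, whereas Lor and Lce1a1 were so in Winnie-Prolapse 2, 4, 5 and 6 alone. Sequences are from RefSeq for GRCm38.p6, written 5′ to 3′ along the strand of the gene and ending at the base before its start. Capitals mark the TATA box (TATAAA), the site of AP-1 factors (TGANTCA) and the octamer of POU factors (ATTTGCAT), motifs that were chosen after the sequences had been read.

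Sprr2h, chr3:92385485-92385684, plus strand: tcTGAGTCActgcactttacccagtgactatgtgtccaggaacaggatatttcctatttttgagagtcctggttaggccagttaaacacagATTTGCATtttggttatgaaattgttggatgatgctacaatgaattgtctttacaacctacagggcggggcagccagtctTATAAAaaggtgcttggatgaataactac
Sprr2k, chr3:92432382-92432581, plus strand: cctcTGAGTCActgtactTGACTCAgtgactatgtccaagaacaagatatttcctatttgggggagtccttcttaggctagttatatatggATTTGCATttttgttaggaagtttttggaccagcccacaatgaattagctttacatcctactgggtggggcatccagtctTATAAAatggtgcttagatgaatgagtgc
Sprr2i, chr3:92407791-92407990, plus strand: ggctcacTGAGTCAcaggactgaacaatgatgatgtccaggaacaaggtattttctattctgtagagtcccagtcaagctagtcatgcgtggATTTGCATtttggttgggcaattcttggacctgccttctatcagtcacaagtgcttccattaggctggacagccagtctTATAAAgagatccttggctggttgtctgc
Sprr1a, chr3:92485896-92486081, minus strand: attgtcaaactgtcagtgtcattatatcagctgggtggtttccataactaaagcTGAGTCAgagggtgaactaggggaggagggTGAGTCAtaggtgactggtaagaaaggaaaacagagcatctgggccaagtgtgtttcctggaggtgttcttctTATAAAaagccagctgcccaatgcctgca
Lor, chr3:92083143-92083342, minus strand: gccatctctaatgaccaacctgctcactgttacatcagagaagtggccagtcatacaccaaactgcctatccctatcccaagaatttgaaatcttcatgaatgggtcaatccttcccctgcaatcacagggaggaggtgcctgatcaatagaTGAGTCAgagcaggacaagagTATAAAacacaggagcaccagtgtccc
Lce1a1, chr3:92648308-92648507, minus strand: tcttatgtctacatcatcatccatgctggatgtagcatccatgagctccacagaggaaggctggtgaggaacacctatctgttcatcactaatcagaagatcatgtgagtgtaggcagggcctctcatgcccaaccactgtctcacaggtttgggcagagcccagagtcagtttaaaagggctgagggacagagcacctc

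The 3 Sprr2 sequences share an order of letters, with TGANTCA farthest from the start, the octamer 108 or 109 bases before it and TATAAA 29 bases before it. Windows of 250 bases before the start were searched on both strands for 43 members that matched RefSeq by symbol. The octamer was found in 7 of them, which were all 7 matched Sprr2 genes outside Sprr2a (Sprr2b, Sprr2d, Sprr2e, Sprr2f, Sprr2h, Sprr2i and Sprr2k), against 1.6% of 32851 windows of that length. TGANTCA was found in 17 of 43 members, among them the same 7 Sprr2 genes, Sprr1a (2 matches), Sprr1b, Lor, Ivl, Flg, Rptn and Crnn, against 6.75% of all windows. TATAAA was found in 21 members, against 12.4% of all windows. Of the 20 Lce genes, 4 held TATAAA and none held TGANTCA or the octamer in this window. The cyclic AMP response element (TGACGTCA, 1.55% of all windows) and the interferon response element (2.98%) were in no member window. A match is a run of letters and was not tested as a binding site.

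Most member RNA came from the 3 Sprr2a genes in all libraries but Winnie-Prolapse 4. Summed over all members, the level was 916 ± 124 CPM in C57BL/6 (SD, n = 8), 1343 ± 464 CPM in Winnie (SD, n = 7) and 1988 ± 434 CPM in Winnie-Prolapse (SD, n = 7). Sprr2a genes held 94.5 to 99.1% of these counts in C57BL/6, 92.3 to 98.9% in Winnie and 38.4 to 90.4% in Winnie-Prolapse. Without Sprr2a the lowest, median and highest sums were 6.65, 10.6 and 50.3 CPM in C57BL/6, 9.22, 43.7 and 132 CPM in Winnie, and 166, 389 and 1680 CPM in Winnie-Prolapse. All Winnie-Prolapse libraries were thus above every other library once Sprr2a was left out. The number of members with 10 or more counts was 5 to 8 in C57BL/6 and 5 to 17 in Winnie, where the highest was Winnie 2. In Winnie-Prolapse 1 to 7 it was 11, 49, 11, 49, 36, 38 and 23.

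**Figure D1:**
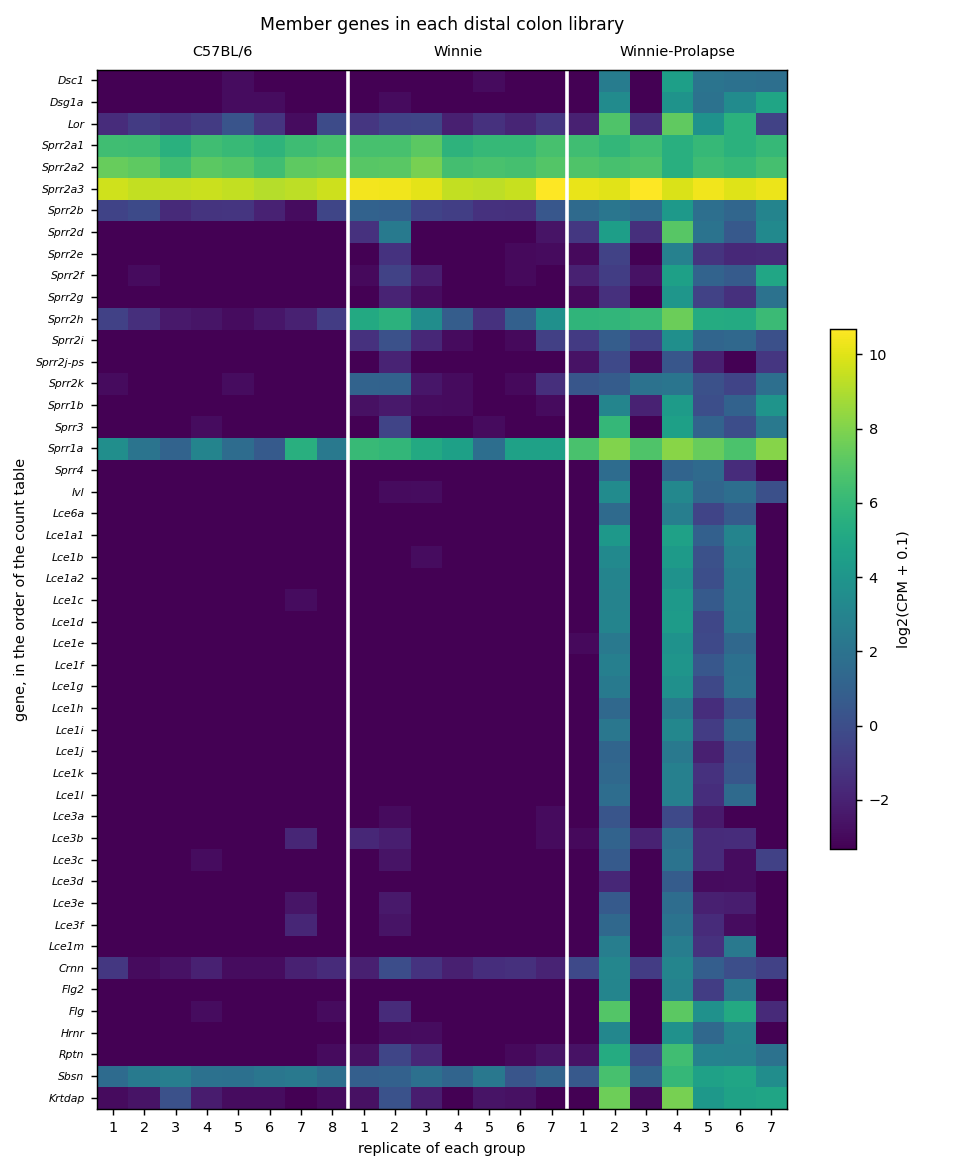
Level of each member with at least 50 counts (rows) in each of the 22 libraries (columns, in the order C57BL/6, Winnie, Winnie-Prolapse), as log2(CPM + 0.1) in colour. Sprr2a rows are bright in all libraries, Sprr1a is brightest in Winnie-Prolapse, Sprr2h varies within Winnie and is bright in every Winnie-Prolapse library, and the Lce block is filled mainly in Winnie-Prolapse 2, 4, 5 and 6.

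Levels of different genes were compared per kilobase of exon. In C57BL/6 the order began with Sprr2a3 at a mean of 241 CPM per kilobase, then Sprr2a2 (45.3), Sprr2a1 (24.7) and Sprr1a (12.4). In Winnie it began with Sprr2a3 (370), Sprr2a2 (44.4), Sprr1a (43.8), Sprr2a1 (29.2) and Sprr2h, the means of Sprr2a2 and Sprr1a being too close to order. In Winnie-Prolapse Sprr2a3 (418) was followed by Sprr1a (234), Krtdap (103), Sprr2h (98.9), Sprr2d (35.4), Sprr2a2 (29.8), Lor (26.5) and Sprr2a1 (21.7). Without Winnie-Prolapse 4 Krtdap was at 64.6, below Sprr2h (74.5), and Sprr2d was at 9.57, below Sprr2a2, Sprr2a1 and Lor. The Winnie-Prolapse means of Krtdap, Sprr2d and Lor rest on 5 or fewer libraries.

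The first comparison asked how these genes differed in chronic colitis at 14 weeks. At the limits of the study (adjusted p under 0.001 and at least 1.5-fold) edgeR's quasi-likelihood test called 0 of the 8 members that passed the count filter, where 0.0868% of 17289 genes tested were called higher and 0.00578% lower. Unadjusted p was under 0.05 for 5 of the 8 members (39.9% of all genes tested), DESeq2 called 3 (Sprr2h, Sprr2i and Sprr2k, where 2.67% of its genes were called higher) and limma-voom called 0. At adjusted p under 0.05, Sprr2h and Sprr2a3 were higher (7.42% of all genes) and Sbsn was lower (8.53% of all genes). Sprr2h reached the level of 10 counts in 2 C57BL/6 and 6 Winnie libraries and so passed the filter mainly through Winnie, and the count is not read against the share of all genes. Sprr2a3 was under the 1.5-fold limit without Winnie 7 (log2 fold change 0.56), and Sbsn missed 0.05 in fits that left out single libraries (adjusted p up to 0.0951). In females alone 0 members passed (0.00579% of genes higher), and in males alone 5 of 8 were higher (2071 of 17574 genes). In no member with at least 50 counts did all Winnie libraries lie above all C57BL/6 libraries, a separation seen in 0.439% of genes.

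Winnie-Prolapse was then compared with C57BL/6. The test called 8 of 11 members higher and 0 lower, where 9.84% of 17397 genes tested were called higher and 8.47% lower. The 8 were Sprr2h, Sprr2k, Sprr2b, Sprr2a3, Sprr1a, Crnn, Sprr2i and Lor. The 3 tested members that were not called were Sbsn, Sprr2a1 and Sprr2a2. The count filter left 45 members untested because they were near 0 in too many libraries. Sprr2h, Sprr2i, Sprr2k and Crnn reached the level of 10 counts in 0 to 2 C57BL/6 libraries and in all 7 Winnie-Prolapse libraries. They passed the filter through the group in which they were high, so the share called among the 11 is not read against that of all genes. With no count filter 17 of 55 members were called higher (6.33% of genes), and the 9 added members were Dsc1, Dsg1a, Flg, Krtdap, Rptn, Sprr2f, Sprr3, Lce1c and Lce3c. DESeq2 called 26 of 55 members higher (9.21% of its genes). Without the 5 Winnie-Prolapse libraries high in basal keratinocyte genes, a setting chosen after the data had been seen, 3 members stayed called higher: Sprr2h, Sprr2k and Sprr2a3 (2.29% of 18356 genes were higher in that fit and 0.261% lower). For 10 of the 48 members with at least 50 counts, all Winnie-Prolapse libraries lay above all C57BL/6 libraries (5.82% of genes with as many counts). The 10 were Sprr2a3, Sprr2b, Sprr2d, Sprr2f, Sprr2h, Sprr2i, Sprr2k, Sprr1a, Crnn and Rptn. Sprr2d and Sprr2i had 0 counts in C57BL/6, Sprr2f and Rptn 1 and Sprr2k 2, so these reached 50 counts outside C57BL/6. The count of 10 is therefore not read against the share of all genes. Sprr2f had 2 counts in Winnie-Prolapse 3 and 1 in C57BL/6 2.

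Winnie-Prolapse was lastly compared with Winnie, where the mutation is shared and prolapse and age differ. The edgeR test called 0 of 13 members, and 0.0% of 17041 genes in either direction. Unadjusted p was under 0.05 for 10 of the 13 (27.8% of all genes tested), DESeq2 called 14 members higher (1.71% of its genes) and limma-voom called 0. At adjusted p under 0.05 and 1.5-fold 7 members were higher and 0 lower, where 4.27% of genes were higher and 2.72% lower. The 7 were Rptn, Sprr1a, Lor, Sbsn, Sprr2b, Crnn and Sprr2i. Rptn, Crnn and Sprr2i reached the level of 10 counts in 1, 1 and 2 Winnie libraries and in 6, 7 and 7 Winnie-Prolapse libraries, so they passed the filter through Winnie-Prolapse and the count is not read against the share of all genes. At these limits males alone gave 0 of 17 members (0 of 17560 genes) and females alone 17 of 20 (1406 of 17383 genes higher). Leaving out Winnie-Prolapse 1 or 3 gave 11 of 16 members in each fit (945 of 17225 and 1037 of 17193 genes higher). These counts are likewise not read against the shares. Without the 5 libraries high in basal keratinocyte genes no member passed 0.05 (lowest adjusted p 0.862, 2 members at unadjusted p under 0.05), where 1 of 18056 genes did and 5.19% had an unadjusted p under 0.05. The log2 fold changes of the 7 were then 1.72 for Rptn, 1.68 for Sprr1a, 1.64 for Sprr2b, 0.99 for Crnn, 0.83 for Sprr2i, -0.40 for Sbsn and -0.71 for Lor. Crnn also missed 0.05 without Winnie 4 (adjusted p = 0.053), and Sprr2i in 9 fits that left out 1 library (adjusted p up to 0.0877, without Winnie-Prolapse 4). Sprr1a and Sprr2b were the only members with at least 50 counts whose Winnie-Prolapse libraries all lay above all Winnie libraries. That separation was seen in 0.382% of genes. Other members, such as the Lce genes, reached 50 counts through Winnie-Prolapse, so this count too is not read against that share. This comparison and the one before it share the Winnie-Prolapse libraries.

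**Figure D2:**
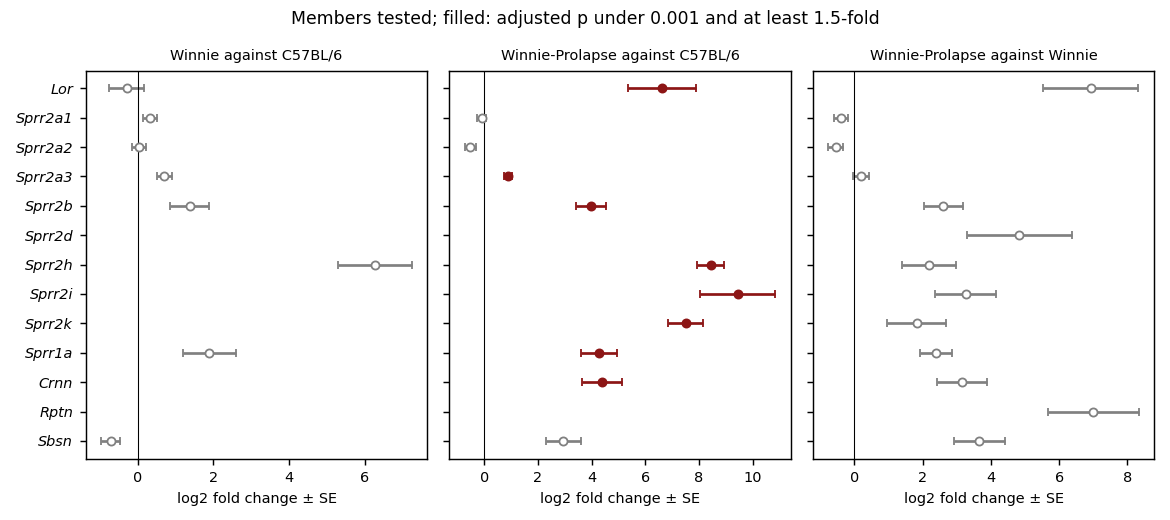
log2 fold change of each tested member in each of the 3 comparisons from edgeR, with bars of 1 SE to either side and filled points for members called at adjusted p under 0.001 and 1.5-fold. The 8 filled points are all in Winnie-Prolapse against C57BL/6, and the value drawn for Sprr2i there depends on the prior count because every C57BL/6 library was at 0.

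The Sprr2a genes encode the small proline-rich protein that intestinal epithelium is known to make. Sprr2a3 (chr3:92285417-92291405) was at 557, 684 and 815 CPM in C57BL/6 (lowest, median and highest), at 630, 1118 and 1602 CPM in Winnie, and at 958, 1206 and 1634 CPM in Winnie-Prolapse. Every Winnie-Prolapse library was above every C57BL/6 library, while the Winnie libraries fell into 3 near the C57BL/6 level and 4 above it. The log2 fold change was 0.89 ± 0.14 (SE, adjusted p = 9.17e-05) in Winnie-Prolapse against C57BL/6 and 0.71 ± 0.19 (SE, adjusted p = 0.0167) in Winnie against C57BL/6. Between Winnie-Prolapse and Winnie it was 0.20 ± 0.23 (SE, adjusted p = 0.611). In the alternative with Winnie-Prolapse 1 and 3 alone, the log2 fold change against C57BL/6 was 1.22 (adjusted p = 0.000634).

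Sprr2a1 and Sprr2a2 did not move with Sprr2a3. Sprr2a1 had log2 fold changes of 0.31 ± 0.18 (SE, adjusted p = 0.209) in Winnie and -0.09 ± 0.17 (SE, adjusted p = 0.661) in Winnie-Prolapse, both against C57BL/6. Sprr2a2 had 0.04 ± 0.19 (SE, adjusted p = 0.900) and -0.51 ± 0.21 (SE, adjusted p = 0.048). The latter missed 0.05 in 10 of 15 fits that left out 1 library (adjusted p up to 0.103) and was -0.077 (adjusted p = 0.853) with Winnie-Prolapse 1 and 3 alone. The split among the 3 genes is uncertain because their transcripts are near copies. Of all 100-base windows in the annotated transcripts, 92.5% of Sprr2a1, 92.8% of Sprr2a2 and 36.2% of Sprr2a3 also occur in another gene, and the Sprr2a1 and Sprr2a2 gene models overlap. The sum of the 3 genes does not depend on how counted reads were divided among them. It would miss shared reads that were left uncounted, and the treatment of such reads was not given. For C57BL/6, Winnie and Winnie-Prolapse the sum was 900 ± 122, 1285 ± 432 and 1357 ± 257 CPM (SD, n = 8, 7 and 7). The summed levels of C57BL/6 and Winnie-Prolapse overlapped, with the highest C57BL/6 library at 1070 CPM and the lowest Winnie-Prolapse library at 1049 CPM.

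Sprr1a (chr3:92483952-92485895) encodes an envelope precursor that is also known to be induced in injured and inflamed tissue. Its level was 1.45, 4.53 and 44.6 CPM in C57BL/6, 3.22, 26.1 and 68.4 CPM in Winnie, and 102, 175 and 289 CPM in Winnie-Prolapse. Every Winnie-Prolapse library exceeded every library of the other groups, and Winnie overlapped with C57BL/6. The mean was 18.8-fold higher in Winnie-Prolapse than in C57BL/6, and 37.0-fold higher without C57BL/6 7. The log2 fold change was 4.26 ± 0.67 (SE, adjusted p = 9.95e-05). Against Winnie it was 2.40 ± 0.48 (SE, adjusted p = 0.0161), and for Winnie against C57BL/6 it was 1.89 ± 0.69 (SE, adjusted p = 0.055). Without C57BL/6 7 the 2 values against C57BL/6 were 5.26 in Winnie-Prolapse and 2.86 (adjusted p = 0.00377) in Winnie. Winnie-Prolapse 1 and 3, low in keratinocyte genes, had 102 and 113 CPM, and the other 5 libraries had 105 to 289 CPM. With Winnie-Prolapse 1 and 3 alone the log2 fold change against C57BL/6 was 3.60, and the call at 0.001 was lost (adjusted p = 0.0161).

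Sprr2h (chr3:92385685-92387324) had the lowest adjusted p of the members in both comparisons with C57BL/6. Its level was 0.0386, 0.120 and 0.547 CPM in C57BL/6, 0.295, 11.6 and 51.0 CPM in Winnie, and 38.0, 58.3 and 184 CPM in Winnie-Prolapse. C57BL/6 and Winnie-Prolapse were far apart, and the Winnie libraries covered the whole distance between them. The log2 fold change was 8.43 ± 0.50 (SE, adjusted p = 9.59e-09) in Winnie-Prolapse and 6.27 ± 0.97 (SE, adjusted p = 0.00162) in Winnie, each against C57BL/6. Between Winnie-Prolapse and Winnie it was 2.18 ± 0.80 (SE, adjusted p = 0.0932), and 2.76 (adjusted p = 0.0371) without Winnie 2. Winnie-Prolapse 1 and 3 had 56.1 and 70.0 CPM, inside the range of the other 5 libraries, and on their own gave 8.32 (adjusted p = 1.21e-06). Sprr2h shares no 100-base window with another gene.

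**Figure D3:**
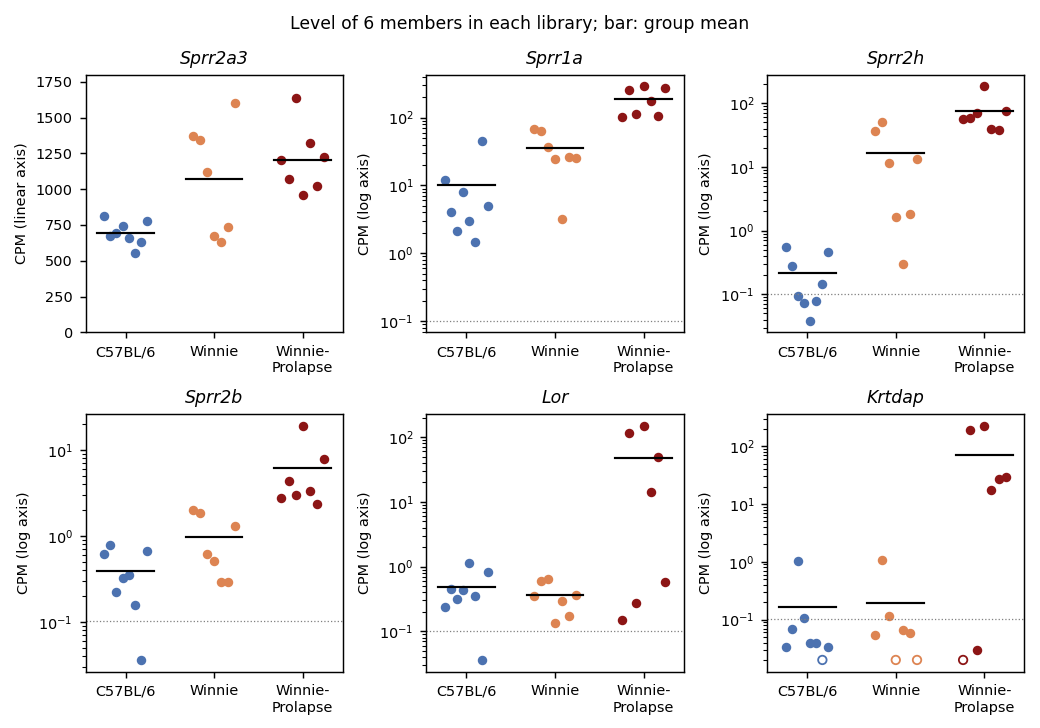
CPM of 6 members in every library of the 3 groups, with the group mean as a bar. The axis is linear for Sprr2a3 and logarithmic for the others, where the dotted line is the level of 3 counts (0.1 CPM) and open circles are libraries at 0 drawn at 0.02 CPM. Sprr2h in Winnie runs from 0.295 to 51.0 CPM, and Lor in Winnie-Prolapse from 0.148 to 151 CPM.

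Sprr2k (chr3:92432582-92433925), Sprr2b (chr3:92316620-92318085) and Sprr2i (chr3:92407991-92409271) are close relatives of Sprr2h in the same cluster. Sprr2k had 2 counts in all C57BL/6 libraries together, 0, 0.0771 and 2.09 CPM in Winnie, and 0.645, 1.58 and 4.16 CPM in Winnie-Prolapse. The ratio of Winnie-Prolapse to C57BL/6 was 260, with a 95% counting interval from 71.6 to 2154, and edgeR gave an adjusted p of 5.24e-07. It stayed called with Winnie-Prolapse 1 and 3 alone (adjusted p = 1.54e-05). Sprr2i was at 0 in C57BL/6, at 0, 0.193 and 1.03 CPM in Winnie, and at 0.414, 1.62 and 12.6 CPM in Winnie-Prolapse, which was at least 28.2-fold higher than the mean 3-count floor of the C57BL/6 libraries (adjusted p = 0.000495). Without Winnie-Prolapse 4 it was at least 13.2-fold higher. Without the 5 libraries high in keratinocyte genes its adjusted p was 0.00729. The call at 0.001 was also lost without Winnie-Prolapse 5 or 6 (adjusted p up to 0.0012).

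Sprr2b was at 0.0362, 0.336 and 0.786 CPM in C57BL/6, 0.288, 0.617 and 1.98 CPM in Winnie, and 2.34, 3.37 and 19.1 CPM in Winnie-Prolapse. The Winnie-Prolapse libraries did not overlap with either other group. Its log2 fold change was 3.97 ± 0.55 (SE, adjusted p = 3.09e-05) against C57BL/6 and 2.61 ± 0.56 (SE, adjusted p = 0.0191) against Winnie. With Winnie-Prolapse 1 and 3 alone it was 3.03 against C57BL/6, past 0.05 but not 0.001 (adjusted p = 0.00362).

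The remaining Sprr genes were near 0 in C57BL/6 and moved unevenly in Winnie-Prolapse. Sprr2d (chr3:92339140-92340873) was at 0 in every C57BL/6 library, at 0.303 CPM or below in Winnie except for 5.25 CPM in Winnie 2, and at 0.272, 3.86 and 129 CPM in Winnie-Prolapse. Its Winnie-Prolapse mean was at least 226-fold above the C57BL/6 floor, or at least 61.3-fold without Winnie-Prolapse 4, and 91.1% of its counts were in Winnie-Prolapse 2, 4, 5 and 6. Sprr3, a member known from oesophagus and other internal stratified epithelia, was highest in Winnie-Prolapse 2 at 63.0 CPM, followed by 25.2 CPM in Winnie-Prolapse 4, and was at 0 in Winnie-Prolapse 1 and 3. The internal stratified keratins Krt4 and Krt13 were also highest in Winnie-Prolapse 2, at a sum of 685 CPM, with 0.545 CPM in Winnie-Prolapse 3.

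Sprr1b and Sprr2f were as high in Winnie-Prolapse 7 as in libraries with many Lce counts. Sprr2f (chr3:92365187-92366442) had 31.5 CPM in Winnie-Prolapse 7, 25.1 in Winnie-Prolapse 4 and 2.12 or below in the other 5. Sprr1b had 15.0 CPM in Winnie-Prolapse 7, between 20.7 in Winnie-Prolapse 4 and 8.24 in Winnie-Prolapse 2. The summed stress keratins (Krt6a, Krt6b, Krt16 and Krt17), known from wounded and inflamed skin, were highest in Winnie-Prolapse 7 at 1746 CPM, against 428 CPM or below in the other libraries of the group. Sprr2e, Sprr2g and the gene labelled Sprr2j-ps were at 0 in C57BL/6 and highest in Winnie-Prolapse 4, at 7.11, 16.5 and 1.26 CPM. Sprr4 was found in 4 libraries only, Winnie-Prolapse 2, 4, 5 and 6, at 0.24 to 2.97 CPM.

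Loricrin, the main protein of the epidermal envelope, was high in 4 of the 5 libraries high in keratinocyte genes. Lor (chr3:92080271-92083142) was at 0.0362, 0.394 and 1.16 CPM in C57BL/6 and at 0.135, 0.358 and 0.655 CPM in Winnie. In Winnie-Prolapse 1 to 7 it was at 0.148, 115, 0.272, 151, 14.2, 48.9 and 0.589 CPM. Libraries 2, 4, 5 and 6 were above every C57BL/6 library and libraries 1, 3 and 7 within the C57BL/6 range. The log2 fold change was 6.63 ± 1.28 (SE, adjusted p = 0.000514) against C57BL/6, and -0.98 (adjusted p = 0.425) once the 5 libraries high in keratinocyte genes were left out. The call was also lost in 8 of 15 fits that left out 1 library, where adjusted p was at most 0.00145 and the log2 fold change over all 15 fits was 6.001 to 6.93. With limma-voom the log2 fold change was 4.12 (adjusted p = 0.107), and the call was lost in males alone and in females alone. Involucrin (Ivl, chr3:92570902-92573735), the scaffold of the envelope, was at 0 in C57BL/6 and in Winnie-Prolapse 1 and 3, and at 0.96 to 10.8 CPM in the other 5.

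The Lce genes, late additions to the envelope, were almost confined to 4 libraries. Of 11007 Lce counts in all, 14 were in C57BL/6 and 22 in Winnie. Winnie-Prolapse 1 to 7 had 2, 3113, 5, 6128, 366, 1342 and 15 Lce counts. Winnie-Prolapse 2, 4, 5 and 6 together held 88.3 to 100% of the counts of each Lce gene. Lce1a1 (chr3:92646535-92648307) was the highest, at 17.8, 26.1, 1.90 and 7.94 CPM in these 4 libraries and 0 in the other 18, which made its Winnie-Prolapse mean at least 72.2-fold higher than the C57BL/6 floor (at least 43.3-fold without Winnie-Prolapse 4). The 14 Lce1 genes summed to 180 CPM in Winnie-Prolapse 4 and to 0.0362 CPM or below in any C57BL/6 library.

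Winnie-Prolapse 7 had the highest basal keratinocyte level (1892 CPM), but 15 Lce counts and Lor at 0.589 CPM. Its suprabasal epidermal genes (Krt1, Krt10, Krt2, Krt77, Krt78 and Krt80) summed to 280 CPM, against 1248 CPM in Winnie-Prolapse 4. The Lce3 genes, which skin is known to raise on injury, were low throughout, and the highest was Lce3f with 4.00 CPM in Winnie-Prolapse 4. Lce3b had the most libraries with reads of any Lce gene, among them C57BL/6 7 with 0.18 CPM, Winnie 1 with 0.19 CPM and Winnie-Prolapse 3 with 0.15 CPM. Between 24.2% and 43.0% of the 100-base windows of Lce3c, Lce3d, Lce3e and Lce3f occur in another gene, so reads of these 4 cannot be assigned with certainty. For Lce1 genes it was 4.90% at most.

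**Figure D4:**
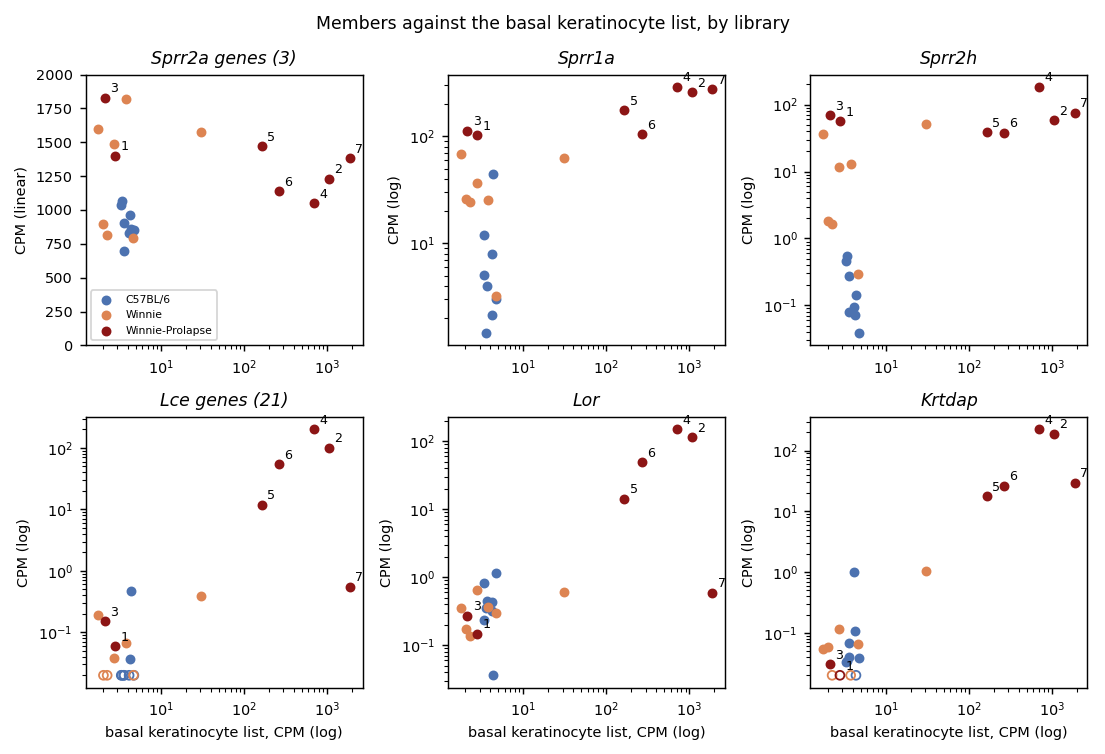
Level of Sprr2a genes, Sprr1a, Sprr2h, Lce genes, Lor and Krtdap (vertical axis, CPM) against the summed level of the 7 basal keratinocyte genes (horizontal axis, CPM on a log axis) in each of the 22 libraries, with Winnie-Prolapse libraries numbered and libraries at 0 drawn as open circles. Winnie-Prolapse 1 and 3 sit with the other Winnie-Prolapse libraries for Sprr1a and Sprr2h and with C57BL/6 for Lce genes, Lor and Krtdap.

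The S100-fused proteins join a calcium-binding head to long repeats and fill or bind the cornifying cell. Flg (ENSMUSG00000081977) had 2 counts in C57BL/6 and was at 0, 121, 0, 141, 13.3, 36.8 and 0.221 CPM in Winnie-Prolapse 1 to 7. The ratio of the group levels was 5026, with a 95% counting interval from 1391 to 41509, and it rested on 4 libraries. Without Winnie-Prolapse 4 the ratio was 3187 (881.9 to 26327). Flg2 was found in the same 4 libraries at 0.49 to 8.08 CPM and in no other. Hrnr was at 2.55 to 13.5 CPM in them and at 0 in Winnie-Prolapse 1, 3 and 7.

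Rptn and Crnn, of the same family but known from tongue and oesophagus as well as skin, were found more widely. Rptn (chr3:93393699-93399442) was at 0.06, 38.9, 0.82, 82.4, 7.32, 6.97 and 3.75 CPM in Winnie-Prolapse 1 to 7 and had 1 count in C57BL/6. Its Winnie-Prolapse and C57BL/6 libraries did not overlap, but the lowest Winnie-Prolapse library had 2 counts and the highest C57BL/6 library 1. In Winnie it was at 0 to 0.673 CPM, a range that held Winnie-Prolapse 1. Against Winnie its log2 fold change was 7.00 ± 1.34 (SE, adjusted p = 0.0146), and 5.97 (without Winnie-Prolapse 4) to 8.31 (without Winnie 2) when single libraries were left out. Crnn (chr3:93144787-93149819) was at 0.03 to 0.38 CPM in C57BL/6, 0.14 to 0.90 CPM in Winnie and 0.45 to 8.63 CPM in Winnie-Prolapse. Its log2 fold change was 4.39 ± 0.75 (SE, adjusted p = 0.000194) against C57BL/6 and 2.25 (adjusted p = 0.0288) with Winnie-Prolapse 1 and 3 alone. Hrnr and Rptn overlap an annotated gene on the opposite strand, and the strand setting of the counting was not given in the sources used here. Rptn also overlaps Gm37857 on the same strand.

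Sbsn and Krtdap encode secreted proteins of the differentiating epidermis. Sbsn (chr7:30751471-30756134) was measured in every C57BL/6 library, at 2.84, 4.09 and 6.25 CPM. It was at 1.21, 2.11 and 4.69 CPM in Winnie, which was lower than in C57BL/6 at the 0.05 limit (log2 fold change -0.71 ± 0.25, SE, adjusted p = 0.0447, up to 0.0951 without 1 library). It missed that limit when C57BL/6 2, 3, 4, 6 or 7 or Winnie 1, 2, 4, 6 or 7 was left out singly. Sbsn was also not called lower at 0.05 with sex as a covariate. In Winnie-Prolapse 1 to 7 it was at 1.39, 95.5, 2.12, 62.8, 25.8, 29.7 and 11.3 CPM. The 5 libraries high in keratinocyte genes exceeded every C57BL/6 library, and Winnie-Prolapse 1 and 3 were below every C57BL/6 library. The log2 fold change was 2.94 ± 0.65 (SE, adjusted p = 0.00148) with all 7 libraries and -1.09 (adjusted p = 0.0459) with Winnie-Prolapse 1 and 3 alone. Sbsn overlaps Tmem147os on the same strand.

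Krtdap (chr7:30787896-30791097) was at 1.02 CPM or below in C57BL/6 and at 1.06 CPM or below in Winnie, where Winnie 2 was the highest. In Winnie-Prolapse 1 to 7 it was at 0, 189, 0.0303, 227, 17.6, 26.6 and 29.7 CPM, so that libraries 1 and 3 were within the range of C57BL/6 and the other 5 above it. Unlike Lor and the Lce1 genes, Krtdap was raised in Winnie-Prolapse 7 to the level of Winnie-Prolapse 6.

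Dsg1a and Dsc1 are the desmosomal cadherins that hold cornifying cells together. Dsg1a (chr18:20310811-20343350) had 2 counts in C57BL/6 and 1 in Winnie. In Winnie-Prolapse 1 to 7 it was at 0, 10.8, 0, 14.6, 3.76, 10.6 and 29.5 CPM, highest in library 7, which held 41.0% of its counts. Dsc1 (chr18:20084184-20114871) was at 0, 5.69, 0, 23.5, 4.09, 3.63 and 3.35 CPM. Both genes were therefore raised in the 5 libraries high in keratinocyte genes and at 0 in Winnie-Prolapse 1 and 3. Of the 100-base windows of Dsg1a, 24.6% also occur in the other Dsg1 genes.

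Over the 48 members with at least 50 counts, 26 had over 95% of all their counts in Winnie-Prolapse 2, 4, 5 and 6, and 32 had over 90%. The share was 19.8% for Sprr2a3, 35.0% for Sprr2k, 48.6% for Sprr2h and 49.9% for Sprr1a. These are the libraries in which Lor and the Lce genes were high, and members such as the Lce1 genes reached 50 counts only through them. The numbers of members therefore describe the pattern only, and the number over all genes is not given. In Winnie 2, the Winnie library high in basal keratinocyte genes, 23 members were above every C57BL/6 library, against 0 to 13 in the other Winnie libraries. Winnie 1 and 3, with basal keratinocyte genes below the C57BL/6 range, had 11 and 13 such members. The share of all genes above every C57BL/6 library is not given for single libraries, so these counts describe the members only. The Winnie level of Sprr2h was 36.2, 51.0, 11.6, 1.62, 0.295, 1.84 and 13.2 CPM in libraries 1 to 7, so the lowest and 2 further low values were in females. Whether the group difference depended on sex was tested with an interaction term, and it passed adjusted p under 0.05 for no tested member (lowest adjusted p 0.299, 0.9995 and 0.362 over 8, 11 and 13 members tested in the 3 comparisons).

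Genes of the same pathway outside the members were read from the same fits. In Winnie against C57BL/6 only Prdm1, a repressor that acts late in epidermal differentiation and also in the gut and in lymphocytes, was called among all lists. The call was lost in 11 of 15 fits that left out 1 library, in females alone, without TMM scaling, with sex as a covariate, with at least 10 counts in every library and with limma-voom. Across C57BL/6 libraries Prdm1 ranged from 2.83 to 9.68 CPM, across Winnie from 8.83 to 30.0 CPM and across Winnie-Prolapse from 22.8 to 54.6 CPM. The log2 fold change was 2.04 ± 0.26 (SE, adjusted p = 0.000937) in Winnie and 2.80 ± 0.24 (SE) in Winnie-Prolapse. In Winnie-Prolapse against Winnie no gene of any list was called.

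In Winnie-Prolapse against C57BL/6, where 9.84% of all genes were called higher and 8.47% lower, each list is given by its calls and by the median log2 fold change of its tested genes. The median of all genes tested was -0.01. Of 11 envelope assembly genes 6 were tested and 3 were higher (median 2.05), which were the cross-linking enzymes Tgm1 (5.57 ± 0.74, SE) and Tgm5 (2.71 ± 0.48, SE) and the protease inhibitor Cst6 (6.28 ± 1.24, SE). The summed level of the list was lower, at 2967 CPM in C57BL/6 and 547 CPM in Winnie-Prolapse on average. Tgm3, a transglutaminase of skin and hair that made up most of this sum, was at 78.3 to 4098 CPM in C57BL/6 and 88.1 to 941 CPM in Winnie-Prolapse, with a log2 fold change of -2.99 ± 0.70 (SE) that was not called (adjusted p = 0.00218). The lowest Tgm3 value of C57BL/6 was in library 7, and the next was 2687 CPM.

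Of 7 cornified junction genes 6 were tested and 3 were higher (median 1.06), namely Cdsn at 2.73, Dsc2 at 1.37 and Pkp3 at 0.73 on the log2 scale. Of 11 genes for filaggrin processing and shedding 6 were tested and 3 were higher (median 2.58), namely the protease genes Asprv1 at 4.39 and Klk8 at 3.64 and the inhibitor gene Spink5 at 7.82. Of 9 barrier lipid genes 4 were tested and 2 were higher, the ceramide synthase gene Cers3 at 5.54 and the lipase gene Lipk at 2.89 (median 2.56). All 12 regulators were tested, with 4 higher (Prdm1, Grhl1 at 3.46, Grhl3 at 3.92 and Tfap2a at 5.77) and Ovol1 lower at -0.86 (median 0.31), while their summed level averaged 2150 CPM in C57BL/6 and 1836 CPM in Winnie-Prolapse. Of 7 further genes of the complex on chromosome 3, 3 were tested and S100a14 (1.09) and S100a16 (1.42) were higher (median 1.30). In Winnie against C57BL/6 the count filter had passed 5 envelope assembly, 5 filaggrin processing, 2 barrier lipid and 11 regulator genes. Some genes of these lists therefore passed here through the group in which they were high. Their counts and medians describe the genes that passed and are not read against all genes. Over all lists with those of the cell types, 31 genes were called, and 3 were called with Winnie-Prolapse 1 and 3 alone. The calls and log2 fold changes of named list genes are from all 7 libraries.

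The cell type lists moved as follows in Winnie-Prolapse against C57BL/6. All 5 tested basal keratinocyte genes were higher (of 7, median log2 fold change 5.91), as were 2 of 3 tested suprabasal genes (of 6, median 2.64), the 1 tested internal stratified keratin (Krt13, 8.97) and 2 of 3 tested stress keratins (of 4, median 7.70). Of the basal and stress lists 3 and 1 genes had passed the count filter in Winnie against C57BL/6, so some passed here through the group in which they were high, and these counts and medians describe the genes that passed. None of the 4 tested milk protein genes and not the 1 tested hair follicle gene was called. Of the 7 colon epithelial genes Cdh17 was higher (0.73) and Car1 (-2.98) and Slc26a3 (-2.55) were lower (median -0.84). In Winnie-Prolapse 1 and 3, where Sprr1a, Sprr2h, Sprr2k and Sprr2a3 were high and Lor, Krtdap, Lce, Flg and Dsg1a were not, the keratinocyte markers were low but not all within the C57BL/6 range. Krt5 was at 0.059 and 0.061 CPM and Krt1 at 0.030 CPM in both. Krt6b was at 0.829 and 0.666 CPM, against 0.095 CPM at most in C57BL/6. Winnie-Prolapse 1 was also above every C57BL/6 library for Krt6a (0.621 CPM), Krt13 (1.51 CPM), Krt16 (1.04 CPM), Dsg3 (0.296 CPM) and Tgm1 (1.98 CPM).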

How the data were processed

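Distal colon RNA from 22 mice was sequenced from poly(A)-selected, stranded libraries. The authors deposited 1 table of raw gene counts, made with STAR and featureCounts on GRCm38 per the labels. The annotation release, the strand setting and the treatment of reads that match several genes were not given in the sources used here. Every test started from these counts. CPM is the count divided by the library's total, times 1000000. edgeR 4.0.16 (R 4.3.3; TMM scaling, filterByExpr) was fitted to the 2 groups of each comparison over all genes, with its quasi-likelihood F test and Benjamini-Hochberg adjustment over all genes tested. Genes were called at adjusted p under 0.001 and 1.5-fold, the limits of the study. SE was derived from the log2 fold change and F. The fit was tested on simulated counts. DESeq2 1.42.0, limma-voom (limma 3.58.1), other filters, single sexes and omitted libraries were alternatives. Replicates were separate mice by label and no pair of libraries matched within sampling noise. Labels name no batch. Coordinates and transcripts were from GENCODE M21. Counting intervals and floors cover counting error only. The members and lists were chosen with earlier results of these data known. Values are given per library, or as lowest, median and highest, for members with at least 50 counts or a call. Of other lists, called genes and up to 4 of the highest level were named.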

Additional observations from a re-analysis of the deposited data

Results flagged for a closer look

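Each member was checked in each group in which it averaged at least 10 counts, for a highest or lowest library whose gap to its neighbour was large for the range of the group (Dixon's 95% critical value). Of 63 such sets 18 were marked. The rate of about 1 in 20 holds for normally distributed values, which was not checked for CPM, so 18 of 63 is not read against it. A set can also enter through its marked library, as did Sprr2d in Winnie, with 164 counts in Winnie 2 and 11 or fewer in the others. The sets are also not independent, because 14 of the 18 marked the same library, Winnie-Prolapse 4.

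Winnie-Prolapse 4 was the highest of its group for Sprr2h at 184 CPM (next 75.5), Sprr2d at 129 CPM (next 23.3), Sprr2b at 19.1 CPM (next 7.87), Sprr2g at 16.5 CPM (next 3.75), Sprr2i at 12.6 CPM (next 2.58) and Sprr2e at 7.11 CPM (next 0.582). It was also the highest for Dsc1 at 23.5 CPM (next 5.69), Lce1d at 20.4 CPM (next 7.76), Lce1c at 18.6 CPM (next 7.53), Lce1f at 15.8 CPM (next 6.50), Lce1e at 14.2 CPM (next 4.98), Lce1g at 12.9 CPM (next 5.30), Lce1k at 6.74 CPM (next 2.52) and Lce3c at 3.87 CPM (next 1.49). This library also had the highest suprabasal epidermal level, 1248 CPM, and its part in these values was not tested.

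The 4 other values stood in other libraries. Sprr3 was at 63.0 CPM in Winnie-Prolapse 2 (next 25.2), Sprr2a2 at 227 CPM in Winnie 3 (next 138) and Sprr2d at 5.25 CPM in Winnie 2 (next 0.303). Sprr1a was at 44.6 CPM in C57BL/6 7 (next 12.1), a library whose envelope assembly genes summed to 161 CPM against 2810 to 4213 CPM in the other C57BL/6 libraries, and whose barrier lipid genes summed to 86.8 CPM against 4.20 to 8.24 CPM.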

How the results depend on the processing

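For Winnie against C57BL/6, 0 members were called. DESeq2 called 3 (2.67% of its genes higher). A fit of all 3 groups called 1, where 174 of 17769 genes were higher, and males alone 1, where 112 of 17574 were. A limit of adjusted p under 0.05 called 3 (7.42% of genes higher and 8.53% lower). Leaving out single libraries gave 0 to 1, the 1 being Sprr2h without Winnie replicate 5 (adjusted p = 0.000139, 436 of 17413 genes higher). The count of genes called in the other lists, 1, was 0 without TMM factors, with limma-voom, with at least 10 counts in every library, with sex as a covariate and in females, 6 with DESeq2, and 0 to 3 without single libraries (0 in 11 of 15 fits, 3 without Winnie replicate 5).

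For Winnie-Prolapse against C57BL/6, where 8 members were called, DESeq2 called 26, no filter 17, at least 10 counts in every library 2 (9.44% of genes higher), males alone 3 (1.43%), females alone 4 (1.28%), and the fit without the 5 libraries high in keratinocyte genes 3. The fit of all 3 groups called 12 of 14 members (1985 of 17769 genes higher). Leaving out single libraries gave 7 to 11. Lor was lost without C57BL/6 replicate 1, 2, 3, 4, 6 or 8 or Winnie-Prolapse replicate 2 or 4 (adjusted p up to 0.00145). It was also lost with limma-voom (log2 fold change 4.12, adjusted p = 0.107), in males (0.0207) and in females (0.0223). Sprr2i was lost without Winnie-Prolapse replicate 5 or 6 (adjusted p up to 0.0012), without replicates 6 and 7 together (0.00203), in males (0.0196) and in females (0.00454). Sbsn was gained without Winnie-Prolapse replicate 1 (adjusted p = 0.000239) or 3 (adjusted p = 0.000319), with DESeq2 (2.53e-06) and in the fit of all 3 groups (0.000259). Krtdap was also gained without Winnie-Prolapse replicate 1 or 3, and Rptn without replicate 1. The other lists' 31 became 56 with DESeq2, 14 with limma-voom, 47 with no filter, 15 with at least 10 counts, 2 in males, 8 in females, 3 without the 5 libraries, and 22 to 34 without single libraries.

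For Winnie-Prolapse against Winnie, 0 members were called. DESeq2 called 14 (1.71% of its genes higher), females alone 3 (53 of 17383 genes higher) and a limit of adjusted p under 0.05 called 7. Fits without single libraries called 0. Males alone called 0 of 17 even at 0.05 (lowest adjusted p 0.823), where 0 of 17560 genes passed. Genes called in other lists numbered 36 with DESeq2, 4 in the fit of all groups and 5 in females. The cause of these differences was not tested.

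Directions turned as follows, in log2 fold change. In Winnie against C57BL/6, Lor was 0.60 in males and -0.47 to 0.015 without single libraries (0.015 without C57BL/6 replicate 5), and Sprr2a2 was -0.030 without TMM factors, -0.0071 with at least 10 counts, -0.21 in females, and -0.12 to 0.11 without single libraries (below 0 without C57BL/6 replicate 3, C57BL/6 replicate 6 or Winnie replicate 3). In Winnie-Prolapse against C57BL/6 without the 5 libraries, Lor was -0.98, Sprr2a1 0.33 and Sbsn -1.09, and Sprr2a1 was -0.18 to 0.0079 without single libraries (0.0079 without Winnie-Prolapse replicate 4). In Winnie-Prolapse against Winnie without the 5 libraries, Lor was -0.71, Sprr2d -1.17 and Sbsn -0.40, and Sprr2a3 was -0.029 in males. The summed member levels stayed within 1 SD under TMM scaling and without single libraries (892 to 947, 1257 to 1433 and 1864 to 2065 CPM). No paired analysis was possible because the labels give no replicate numbers and replicates were numbered in accession order.

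Depth limits members under 50 counts, for which absence in C57BL/6 means only under about 0.1 CPM. The counts do not separate cell number from RNA per cell, and prolapse goes with age.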
